A study of Mus musculus with 11 samples.

Results

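The cytosolic ribosome is the particle that translates messenger RNA into protein, and each of its proteins is encoded by its own nuclear gene. The genes followed here are the mouse symbols that begin with Rpl (large subunit) or Rps (small subunit) and a number, together with Rplp0, Rplp1, Rplp2 and Rpsa, without S6 kinase genes and pseudogene symbols. Of 25562 symbols in the deposited table, 93 matched, and 86 reached the required mean of 10 TPM over all 11 libraries. TPM is a length-corrected share of a library's transcripts, so levels can be compared between genes, and a rise in some genes lowers the share of others. Rpl6l, at 13.99 TPM, was the member just inside the minimum, and Rps3a3, at 3.78 TPM, was just outside it. By role, 31 members encode proteins of the small subunit and 43 of the large subunit, and 3 (Rplp0, Rplp1 and Rplp2) encode the stalk. Another 4 are paralogues (Rpl7l1, Rpl22l1, Rpl36al and Rps27l) and 4 carry copy-like symbols (Rpl6l, Rpl37rt, Rps27rt and Rps3a2). The last, Rps19bp1, encodes a partner of Rps19 and no ribosomal subunit, and it is here only because its symbol matches the rule.

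Ribosomal protein messages share an unusual start. Many begin with a run of pyrimidines, the terminal oligopyrimidine tract, through which mTOR signalling controls how strongly they are translated. Resting T cells hold few ribosomes, and activation through the antigen receptor sets off ribosome production, in which nucleolar biogenesis factors assemble these proteins on ribosomal RNA.

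The RNA came from CD8+ T cells that a kit had isolated from C57BL/6 splenocytes (an inbred mouse strain). The 4 AOAH libraries came from cells given ethanol and 10 µg/mL recombinant human AOAH (acyloxyacyl hydrolase, a lipase). The 3 PC libraries came from cells pretreated with 60 µM PC16:0-20:4, a phosphatidylcholine, and later given PBS buffer with 10% glycerol. The 4 vehicle libraries came from cells given ethanol and that same buffer. All cells had a 22 h pretreatment and 24 h of activation with anti-CD3 at 1 µg/mL plus anti-CD28 at 0.5 µg/mL. The labels place AOAH in the pretreatment in one field and in the activation in another, name both plate-bound antibody and beads, and list medium with or without 100 IU/mL interleukin-2. They give no glycerol share for AOAH, so a buffer difference cannot be told apart from AOAH. Libraries are numbered by batch, 1 to 4, with no PC library in batch 4. No label says that they came from separate animals or cultures, so a p-value here reflects library-to-library spread alone, and that spread may be technical.

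The T cell label held: the 7 T cell markers, all above 1 TPM in every library, summed to 2185 to 2233 TPM with AOAH, 2700 to 2795 TPM with PC and 2456 to 2482 TPM with vehicle. Of 7 B cell markers, 4 reached 1 TPM and the sums were 151 to 161 TPM with AOAH, 185 to 193 TPM with PC and 171 to 180 TPM with vehicle, most of it Ighm (124 to 167 TPM) with Cd74 (15.0 to 21.5 TPM), Cd79b (5.42 to 9.2 TPM) and H2-Aa (0.98 to 3.14 TPM), while Ms4a1 and Cd79a stayed at or under 0.5 TPM. Sums of 4 natural killer cell markers, nearly all of it Eomes (78.6 to 101.1 TPM), which activated CD8+ T cells also express, with Ncr1 at or under 0.24 TPM, were 81.9 to 88.5 TPM with AOAH, 79.6 to 85.3 TPM with PC and 99.02 to 102.9 TPM with vehicle. The 6 myeloid markers summed to 71.7 to 76.1 TPM with AOAH, 76.2 to 80.4 TPM with PC and 72.2 to 78.7 TPM with vehicle, nearly all of it Cst3, and Cd4 stayed at or under 0.42 TPM. The 6 RNA quality genes (Malat1, Neat1 and 4 mitochondrial transcripts) summed to 14352 to 14975 TPM with AOAH, 15021 to 15537 TPM with PC and 14886 to 15511 TPM with vehicle. This sum is carried by the mitochondrial transcripts, and the 2 long nuclear RNAs differed more. Neat1 averaged 17.8 TPM with AOAH against 39.9 TPM with vehicle (log2 -1.14 ± 0.12, limma adjusted p = 3.09e-04), and 72.6 TPM with PC against 40.1 TPM with vehicle 1 to 3 (0.84 ± 0.07, limma adjusted p = 8.58e-04). Malat1 averaged 119.8 TPM with AOAH against 192.7 TPM with vehicle (log2 -0.69 ± 0.09, limma adjusted p = 0.00106), and 280.3 TPM with PC against 192.7 TPM with vehicle 1 to 3 (0.53 ± 0.10, limma adjusted p = 0.0155). The T and B cell sums did not overlap between any 2 groups, and the part of all these markers in the results was not tested. In bulk RNA, fewer cells of a type and less RNA per cell cannot be told apart.

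The start windows of 8 members show starts with and without a pyrimidine run over the annotated start. They were chosen because the results turn on these genes, and because Rps27 has a copy and a paralogue with different starts. Each window holds 15 bases before and 15 bases from the annotated RefSeq start on (build GRCm38.p6), read 5′ to 3′ on the gene's strand. Capitals mark a run of at least 5 pyrimidines (C or T) that covers the start.
Rps27: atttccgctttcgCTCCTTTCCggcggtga
Rps27rt: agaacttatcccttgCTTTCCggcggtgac
Rps27l: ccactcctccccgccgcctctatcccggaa
Rplp2: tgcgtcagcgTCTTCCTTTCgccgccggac
Rps18: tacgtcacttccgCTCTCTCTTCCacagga
Rps6: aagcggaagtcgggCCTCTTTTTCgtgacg
Rpl22: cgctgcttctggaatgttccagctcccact
Rpl22l1: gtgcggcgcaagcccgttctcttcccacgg
The Rps27 window lies at chr3:90213634-90213663 on the minus strand, Rps27rt at chr9:114982725-114982754 (minus), Rps27l at chr9:66946071-66946100 (plus) and Rplp2 at chr7:141447636-141447665 (plus). The Rps18 window lies at chr17:33955651-33955680 (minus), Rps6 at chr4:86857353-86857382 (minus), Rpl22 at chr4:152324421-152324450 (plus) and Rpl22l1 at chr3:28805493-28805522 (plus). Rps27, Rps27rt, Rplp2, Rps18 and Rps6 carry the run, while neither the first annotated start of Rps27l and Rpl22 nor that of Rpl22l1 does. In Rps27l and Rpl22l1 a run of at least 5 pyrimidines begins right after the annotated start base. Their lack of a covering run therefore depends on the exact annotated base.

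A promoter entry was found for 64 of the 86 members, among 27025 genes with an entry. A pyrimidine run over the annotated start was present in 32.8% of these members (21 genes) and in 11.8% of all genes, and a run within 5 bases of the start in 54.7% and 36.7%. In the 300 bases around the start (250 before and 50 from it on, both strands), GCCATNTT was found in 20.3% of members and 7.0% of all genes. CCGGAAGT was found in 18.8% of members and 4.3% of all genes. CACGTG was present in 9.4% of members and 8.1% of all genes, and TATAAA in 10.9% and 15.7%. The run over the start was about as common in members called lower with AOAH (36.0%, 9 of 25) as in members not called (31.6%, 12 of 38). These shares describe letters in a window, are not independent of each other, and show no bound factor. A run that misses the annotated base is not counted as covering the start. The shares therefore do not show which messages begin with the tract, in all members or in those called lower.

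In these activated cells ribosomal protein messages made up much of the RNA. Together the members held 26.3%, 26.5%, 26.0% and 26.0% of TPM in the AOAH libraries, 28.28%, 28.25% and 28.26% in the PC libraries, and 27.1%, 28.1%, 27.0% and 28.1% in the vehicle libraries. AOAH lay below vehicle and PC above it with no overlap. Vehicle 1 and 3 were low and vehicle 2 and 4 high: 15, 78, 4 and 77 of the 86 members stood above the vehicle mean in vehicle 1, 2, 3 and 4. With PC, the summed share exceeded that of vehicle 2 and 4 by less than vehicle 2 and 4 exceeded vehicle 1 and 3.

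**Figure D1:**
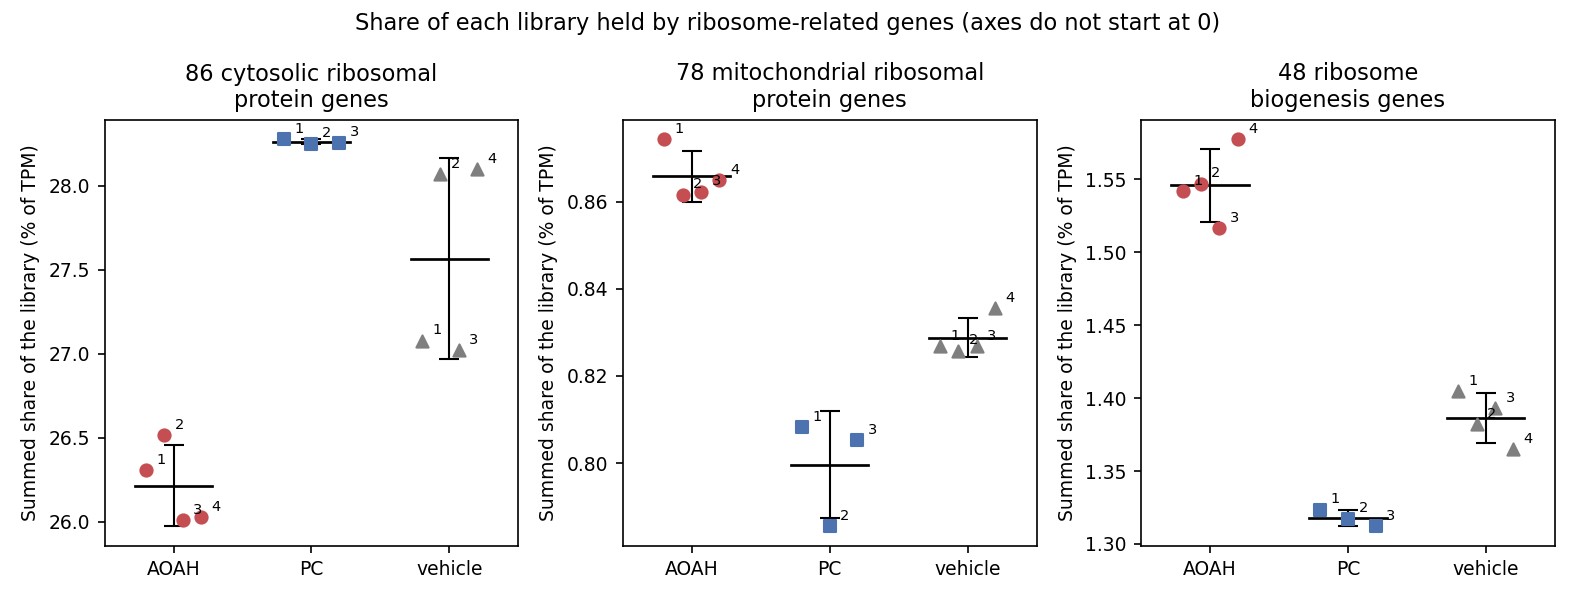
Summed share of each library's TPM (percent, axes not starting at 0) held by the 86 cytosolic ribosomal protein genes, 78 mitochondrial ribosomal protein genes and 48 ribosome biogenesis genes. Points are libraries numbered by batch, bars the mean and SD of 4 AOAH, 3 PC and 4 vehicle libraries. The cytosolic set is lowest with AOAH (26.0% to 26.5%) and highest with PC (28.3%), and the other 2 sets run in the opposite order.

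The small subunit share was 11.1% ± 0.0954 with AOAH (SD, n = 4), 12.1% ± 0.0396 with PC (SD, n = 3) and 11.8% ± 0.271 with vehicle (SD, n = 4). The large subunit share was 13.1% ± 0.122 with AOAH, 13.97% ± 0.0286 with PC and 13.7% ± 0.293 with vehicle (SD, same n). The ratio of summed small to large subunit TPM ranged from 0.845 to 0.848 in AOAH libraries, from 0.865 to 0.873 in PC libraries and from 0.856 to 0.864 in vehicle libraries. No library of 1 group lay within the range of another.

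Among single genes, 78 members stood at 1000 TPM or more on average, and 66 of the 100 most abundant genes and 7 of the top 10 were members. Rpl13a, a large subunit protein, was highest at 13383 TPM, followed by the stalk protein gene Rplp1 (9952 TPM), and both stood among the 5 highest members in every library. Rps27 stood among the 5 highest members in all PC and vehicle libraries, and in AOAH 1 and 2 but not AOAH 3 and 4. At the low end were Rpl6l (13.99 TPM), Rps27rt (90.9 TPM) and Rps19bp1 (110.7 TPM). Within groups, Rpl3, which lines the peptidyl transferase centre, varied least (SD 0.0087 on the log2 scale) and Rpl37rt most (SD 0.200).

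With AOAH, most ribosomal protein genes had slightly lower TPM, a direction that the median lost (0.01) when libraries were scaled to their summed members, and the small subunit gene Rps27 was lower under every scaling. Of the 86 members, 36 were lower and 1 (Rpl7l1) was higher than with vehicle by limma at an adjusted p under 0.05, against 12.1% lower and 13.1% higher among all 11561 genes tested. The median log2 difference was -0.07 for members and 0.01 for all genes, and 79 of 86 members were below 0. The AOAH and vehicle libraries did not overlap for 36 members that were lower and 1 that was higher, where 13.7% and 15.1% of all genes showed this. Among 179 other genes of 500 TPM or more, a comparison chosen after the values were seen, the calls were 82 higher and 21 lower (median 0.07). The count of lower members fell to 10 when TPM was rescaled by trimmed means (TMM), to 21 under quantile normalization, and to 4 lower with 11 higher when each library was scaled to its summed members, which by construction removes a change common to all. It also fell to 22 without AOAH 3, AOAH 4, vehicle 2 or vehicle 4. Quantile normalization gives every library the same values by rank, so a gene that keeps its rank shows no difference by construction.

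Rps27, a zinc finger protein of the small subunit, stood at 6096, 6111, 5759 and 5610 TPM with AOAH, against 6957, 7281, 6918 and 7570 TPM with vehicle. All AOAH libraries lay below all vehicle libraries. The log2 difference was -0.29 ± 0.04 (SE, limma adjusted p = 8.24e-04), and it passed the threshold in all 19 alternatives. In the GENCODE transcripts, 98.4% of its 100-base stretches also occur in Rps27rt or Gm17241, so its level is uncertain to the extent that reads were divided among them. The copy Rps27rt stood at 97.3, 81.4, 71.2 and 67.9 TPM with AOAH and 93.8, 73.2, 87.8 and 82.2 TPM with vehicle, and these ranges overlapped.

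Rps15, which lies near the decoding site, stood at 4819, 4917, 4808 and 4863 TPM with AOAH and at 5188, 5467, 5301 and 5429 TPM with vehicle. Its log2 difference was -0.14 ± 0.02 (SE, limma adjusted p = 9.39e-04). Rps7, a small subunit protein that also binds the p53 regulator Mdm2, had 2716, 2765, 2743 and 2737 TPM with AOAH, against 2933, 3036, 2969 and 3006 TPM with vehicle. The AOAH libraries of Rps7 were tightly grouped and all lower, with a log2 difference of -0.12 ± 0.02 (SE, limma adjusted p = 6.40e-04). Both genes passed in all 19 alternatives. Rps18 fell with a log2 difference of -0.13 ± 0.02 (SE; not called under quantile normalization), and Rps6, the protein phosphorylated by S6 kinases downstream of mTOR, with -0.11 ± 0.02 (not called under quantile normalization or scaling to the summed members). Rps21, chosen after its values were seen, had a log2 difference of -0.17 ± 0.04, and its AOAH libraries spread from 2975 to 3405 TPM, against 3524 to 3786 TPM with vehicle.

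In all, 15 of 31 small subunit genes (48.4%) were lower with AOAH and none higher, beside 12.1% and 13.1% of all genes. Their median log2 difference was -0.08. The lower count was 7 under TMM, 6 with 1 higher under quantile normalization, and 4 with 2 higher under member scaling. Rpsa, the small subunit protein also described as a laminin receptor precursor, had a log2 difference of -0.04 ± 0.02 (SE, limma adjusted p = 0.0845). Rps27a, whose protein is made as a fusion with ubiquitin, had -0.03 ± 0.03 (SE, limma adjusted p = 0.390).

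Large subunit genes gave 19 of 43 lower (44.2%, beside 12.1% of all genes) and none higher, with a median log2 difference of -0.07. For these 43 genes the lower count was 3 under TMM, 14 under quantile normalization, and 0 with 5 higher under member scaling. The largest fall among them was that of Rpl17, a protein at the rim of the exit tunnel, at -0.13 ± 0.02 (SE, limma adjusted p = 0.0036), followed by Rpl13 at -0.11 ± 0.02 (limma adjusted p = 0.00365), and scaling to the summed members ended both calls. Rpl5 and Rpl11, which form a particle with 5S ribosomal RNA that restrains Mdm2, differed by -0.03 ± 0.01 (limma adjusted p = 0.113) and -0.08 ± 0.02 (limma adjusted p = 0.0319), and the Rpl11 call was lost without AOAH 1, AOAH 3, AOAH 4, vehicle 2 or vehicle 4 with no filter on low genes, and under TMM, quantile and member scaling. Rpl10, among the last proteins to join the subunit, differed by -0.01 ± 0.01, with a 95% interval from -0.04 to 0.02. Rpl41, the smallest ribosomal protein, differed by -0.01 ± 0.03 with an interval from -0.08 to 0.07. Rpl13a differed by -0.06 ± 0.03 (limma adjusted p = 0.128), with overlapping groups.

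Of the stalk genes, whose products recruit the translation factors that hydrolyse GTP, Rplp1 was lower with AOAH at a log2 difference of -0.08 ± 0.02 (SE, limma adjusted p = 0.00843), Rplp2 at -0.10 ± 0.03 (limma adjusted p = 0.0355), and Rplp0 was not called at -0.03 ± 0.02 (limma adjusted p = 0.322). The Rplp2 call was lost with the batch as a block (limma adjusted p = 0.0638), with no filter, without any 1 of the AOAH libraries and without vehicle 2 or 4. Both calls were lost under TMM and member scaling. That of Rplp1 was also lost under quantile normalization, where its difference was 0. Values there are set by rank, so this 0 does not show equal TPM.

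**Figure D2:**
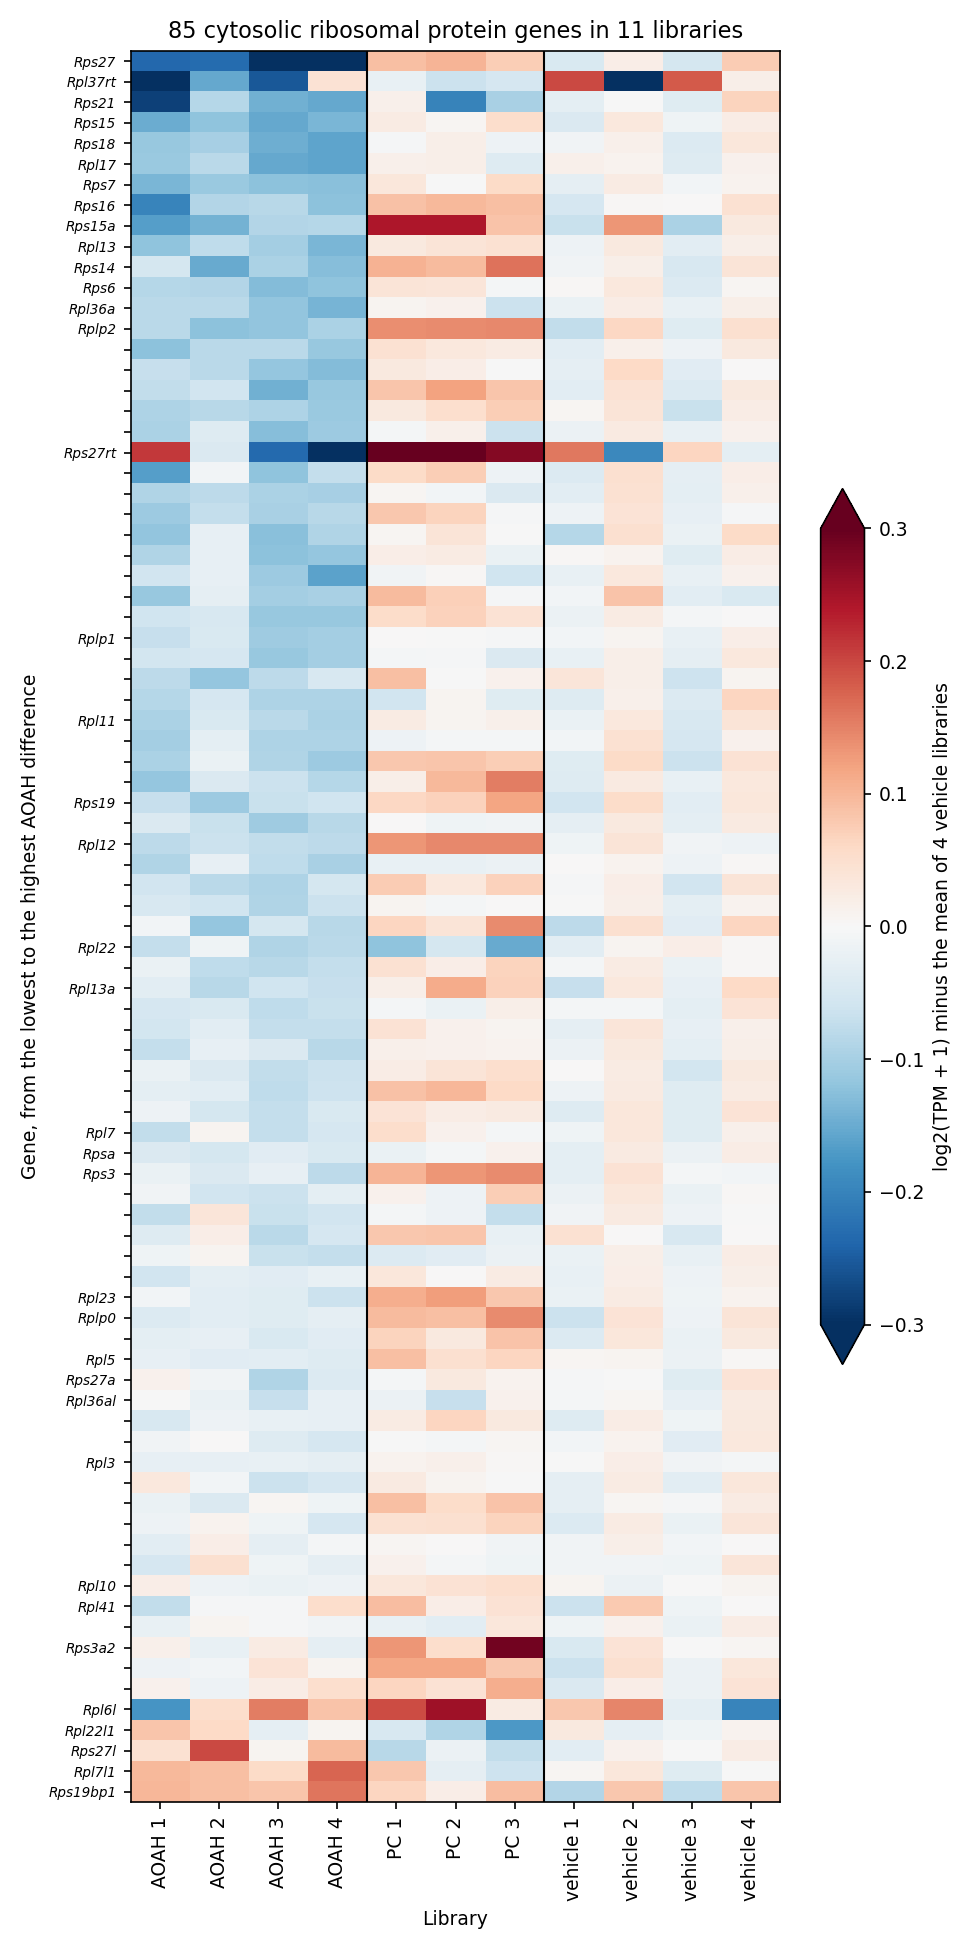
Each of 85 of the 86 genes (rows, with the genes named in the text labelled) in 11 libraries (columns), as log2(TPM + 1) minus the mean of the 4 vehicle libraries, on a colour scale cut at -0.3 and 0.3. Rows run from Rps27, the lowest with AOAH, to Rps19bp1. Most rows are below 0 in the AOAH columns and above it in the PC columns, with vehicle 1 and 3 mostly below and vehicle 2 and 4 mostly above, while scaled to the summed members the median differences are 0.01 for AOAH and -0.01 for PC.

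With PC, fewer members were called and most of these were higher, among them Rpl12 and the stalk genes Rplp2 and Rplp0, although the median difference was slightly negative (-0.01) for subunit and stalk genes after scaling to the summed members. PC was set against vehicle 1 to 3, as vehicle 4 is labelled for the AOAH comparison alone, and these 3 libraries also served the AOAH comparison, so the 2 sets of differences are not independent. Of the 86 members, 16 were higher and 1 (Rpl22) lower, against 8.27% higher and 11.2% lower among all 11628 genes tested. Among the 179 other genes of 500 TPM or more, 27 (15.1%) were higher and 53 (29.6%) lower. The share of members called higher, 18.6%, is thus near that of these abundant genes, while the share called lower, 1.16%, is not. Members had a median log2 difference of 0.04, and all genes one of -0.01. Groups did not overlap for 25 members that were higher and 3 that were lower, where 17.9% and 21.4% of all genes showed this. The 16 became 8 under TMM rescaling, 7 with no filter on low genes, and 5 higher with 4 lower when scaled to the summed members. It was 6, 6 and 7 without PC 1, 2 and 3, 4 without vehicle 1, 3 without vehicle 3 and 25 without vehicle 2.

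Rplp2 stood at 2501, 2506 and 2511 TPM with PC, against 2158, 2372 and 2214 TPM with vehicle 1 to 3. The PC libraries lay close together and above every vehicle library, including vehicle 4 at 2351 TPM. The log2 difference was 0.16 ± 0.03 (SE, limma adjusted p = 0.0204), and the call was lost with no filter and without any 1 PC library or vehicle 1 or 3. Rpl12, which forms the base of the stalk together with Rplp0, had 2320, 2336 and 2336 TPM with PC and 2095, 2173 and 2099.9 TPM with vehicle 1 to 3. It rose with a log2 difference of 0.13 ± 0.02 (SE, limma adjusted p = 0.00491), and passed in all 18 alternatives. Rplp0 was higher at a log2 difference of 0.12 ± 0.03 (limma adjusted p = 0.0303; lost with no filter, without any 1 PC library, vehicle 1 or vehicle 3, and under TMM and member scaling), while Rplp1 differed by 0.01 ± 0.01 with a 95% interval from -0.03 to 0.04.

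Among small subunit genes, 6 of 31 (19.4%) were higher with PC and none lower, beside 8.27% and 11.2% of all genes. Of the other genes of 500 TPM or more, 15.1% were higher and 29.6% lower. The higher count was 4 under TMM, 2 with 1 lower under quantile normalization, and 3 with 2 lower under member scaling. Rps14, the gene lost in the human 5q- syndrome, stood at 6842, 6797 and 7132 TPM with PC, against 6326, 6448 and 6165 TPM with vehicle 1 to 3, without overlap. Its log2 difference was 0.13 ± 0.03 (SE, limma adjusted p = 0.0126), and it passed in all 17 alternatives that gave a value. Rps16 was higher by 0.11 ± 0.02 in log2 terms (limma adjusted p = 0.0121; lost under member scaling) and Rps3, at the entry of the messenger RNA channel, by 0.12 ± 0.02 (limma adjusted p = 0.0137; lost without PC 3, vehicle 1 or vehicle 3). Rps27 had 7642, 7707 and 7551 TPM with PC, against 6957, 7281 and 6918 TPM with vehicle 1 to 3. Its log2 difference was 0.11 ± 0.02 (SE, limma adjusted p = 0.0145). Vehicle 4, at 7570 TPM, lay within the PC range, and with it included the limma adjusted p was 0.0790. The call was also lost in a fit over all 11 libraries, without PC 2, vehicle 1 or vehicle 3, and under quantile normalization, where the log2 difference was 0.04 (limma adjusted p = 0.193). Rps15a, chosen after its values were seen, had 3913, 3913 and 3509 TPM with PC and 3155, 3626 and 3095 TPM with vehicle 1 to 3. These groups overlapped, and the log2 difference of 0.20 ± 0.07 was not called (limma adjusted p = 0.102), while the authors' deposited table gave it a log2 fold change of 0.21 with an adjusted p of 0.00132 (DESeq2).

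Of the large subunit genes, 7 of 43 (16.3%) were higher and 1 lower with PC, beside 8.27% and 11.2% of all genes. For the other genes of 500 TPM or more these shares were 15.1% and 29.6%. The higher count was 2 under TMM, 6 under quantile normalization, and 1 with 1 lower under member scaling. Rpl23 was higher by 0.11 ± 0.02 in log2 terms (limma adjusted p = 0.0149; lost under member scaling and without PC 1, PC 2, vehicle 1 or vehicle 3). Rpl5 was higher by 0.07 ± 0.02 (limma adjusted p = 0.0408), and its call was lost with the batch as a block (limma adjusted p = 0.0737), with no filter, under TMM and member scaling, and whichever of the 6 libraries was left out. The exception was Rpl22, needed in mice for the survival of developing T cells, with 1912, 2005 and 1871 TPM with PC and 2035, 2092 and 2108 TPM with vehicle 1 to 3. Its log2 difference was -0.11 ± 0.03 (SE, limma adjusted p = 0.0440), and the call was lost in 9 of 18 alternatives, among them the batch as a block (limma adjusted p = 0.0611), no filter, TMM rescaling, quantile normalization and leaving out PC 1, PC 3 or any 1 vehicle library. Rps27rt stood at 124.1, 119.7 and 101.9 TPM with PC, against 93.8, 73.2 and 87.8 TPM with vehicle 1 to 3. Its log2 difference was 0.44 ± 0.11 (SE, limma adjusted p = 0.0328), and since it shares 89.5% of its 100-base stretches with other genes, Rps27 foremost, the value is uncertain. The call was also lost with no filter, under member scaling, and without PC 1, PC 2, vehicle 2 or vehicle 3.

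**Figure D3:**
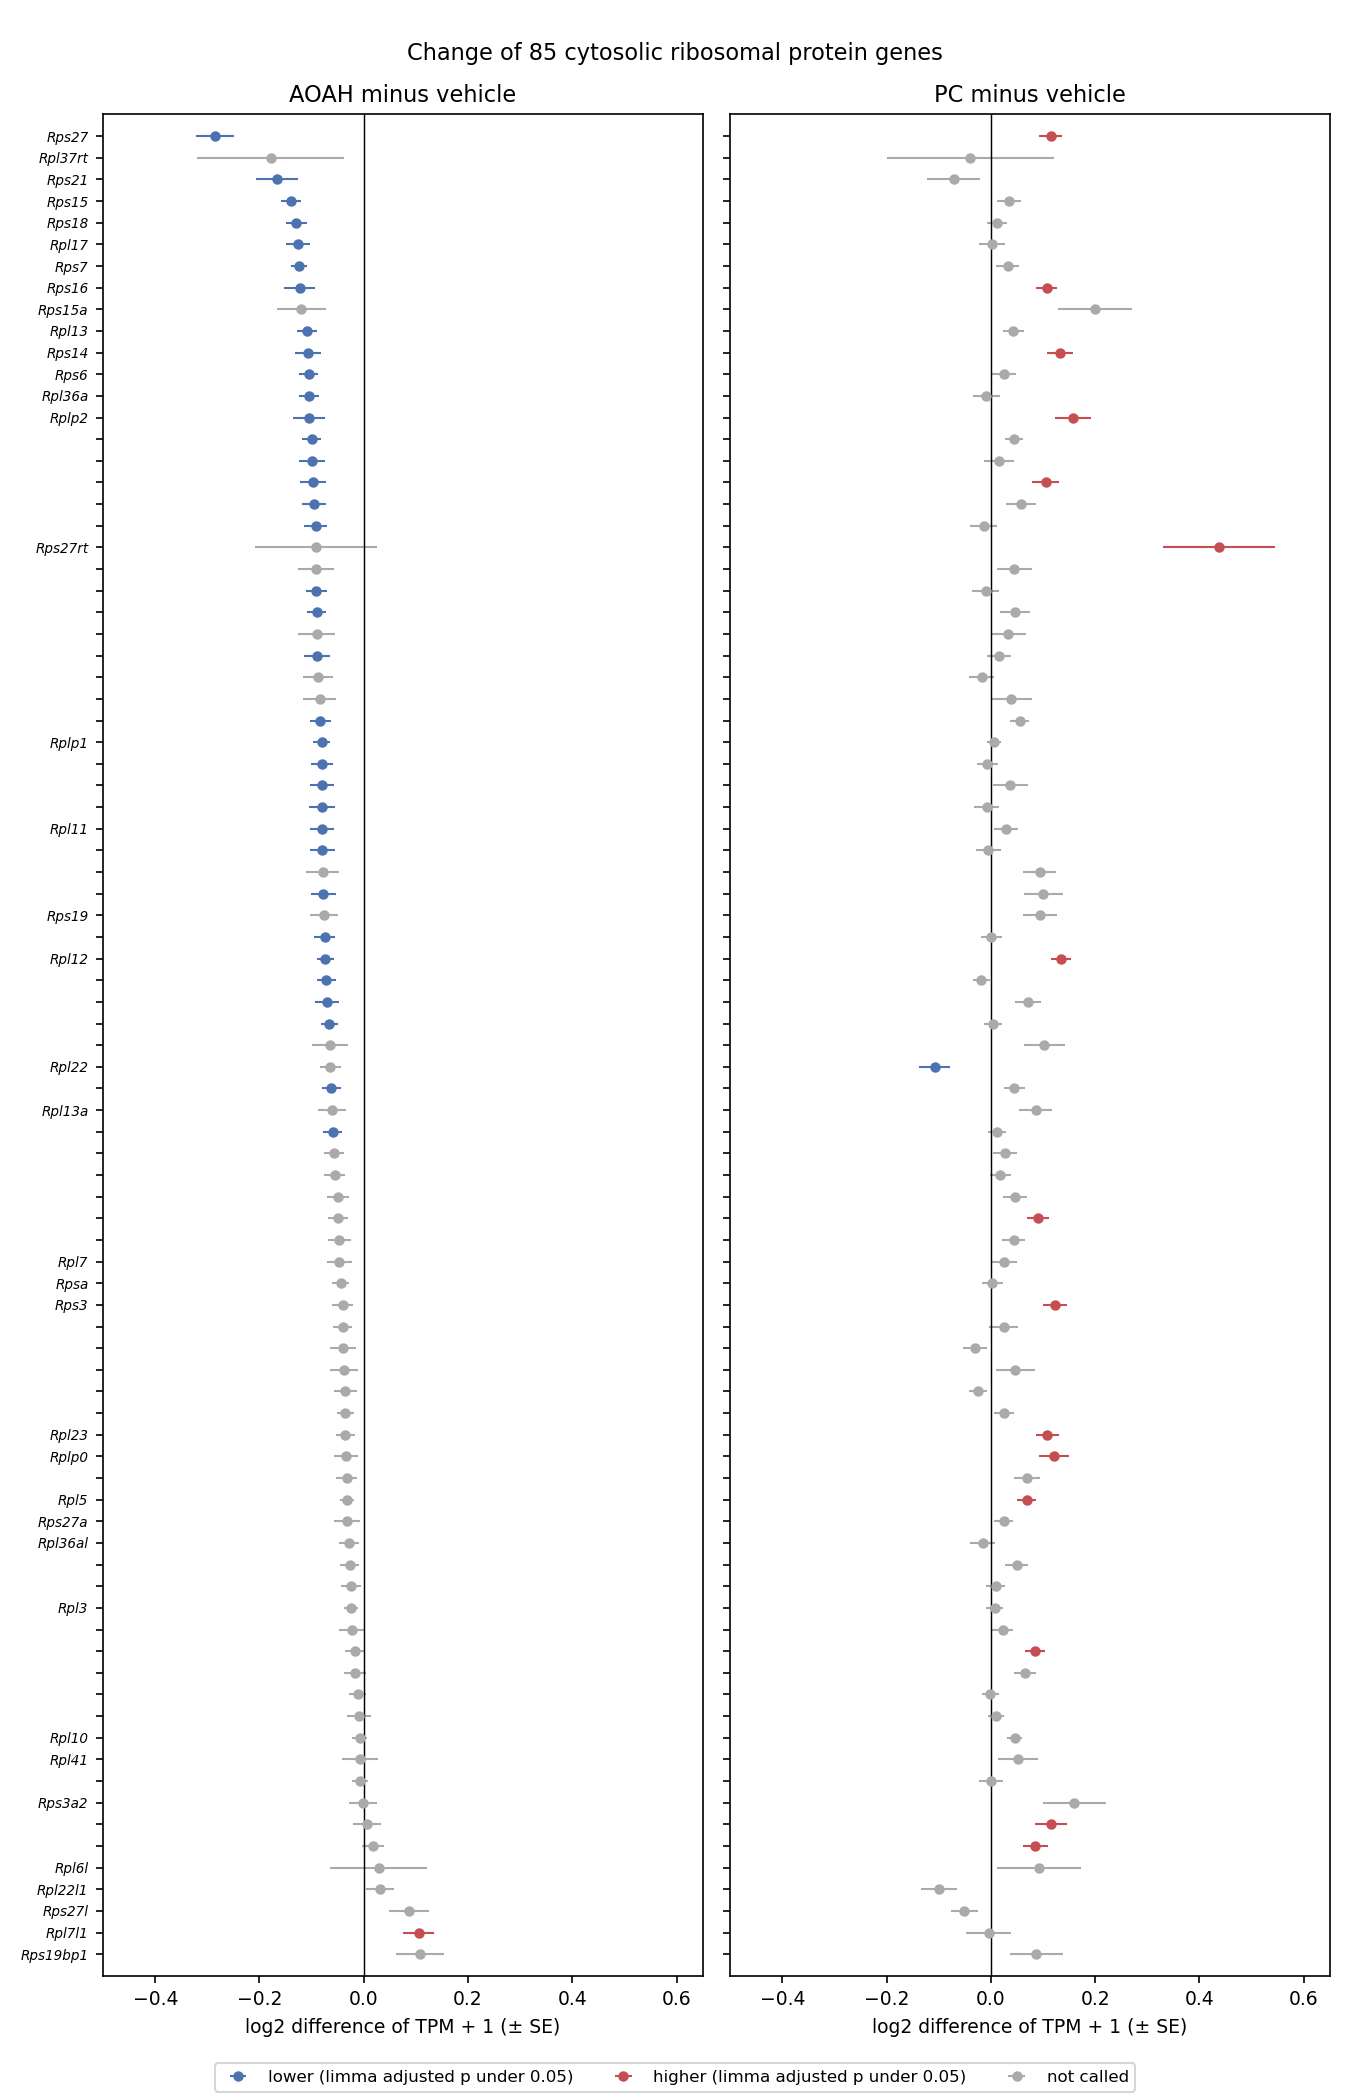
Log2 difference of TPM + 1 (points, with SE) of 85 of the 86 genes (those named in the text labelled) for AOAH minus vehicle (4 against 4 libraries) and PC minus vehicle (3 against vehicle 1 to 3), sorted by the AOAH difference. Blue marks lower and red higher at a limma adjusted p under 0.05, with 35 and 1 of the plotted genes for AOAH and 1 and 15 for PC. When libraries are scaled to their summed members, the counts over all 86 become 4 and 11 for AOAH, and 4 and 5 for PC.

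Compared directly, AOAH libraries had 58 members lower and 2 higher than PC libraries, against 21.5% lower and 24.3% higher among all 11596 genes tested. The groups did not overlap for 60 members that were lower and 2 that were higher, where 23.9% and 26.8% of all genes showed this. The median log2 difference of the members was -0.09, and 0.01 when scaled to the summed members. The lower count was 47 under TMM rescaling, 32 under quantile normalization and 50 to 62 with 1 library left out, and became 11 lower with 23 higher when scaled to the summed members. Rps27 had a log2 difference of -0.37 ± 0.03 (SE, limma adjusted p = 5.65e-05), Rplp2 one of -0.25 ± 0.02 (limma adjusted p = 1.60e-05) and Rpl12 one of -0.21 ± 0.01 (limma adjusted p = 1.42e-05). All 3 passed in every one of 18 alternatives. By role, 25 of 31 small subunit, 28 of 43 large subunit and 3 of 3 stalk genes were lower. Under member scaling, 7 small subunit genes were lower and 5 higher, and 2 large subunit genes lower and 13 higher. Of 12 genes mutated in human Diamond-Blackfan anaemia, a failure of red cell production, 11 (91.7%) were lower, beside 67.4% of all members. Against vehicle, 4 of the 12 (33.3%) were lower with AOAH, beside 41.9% of all members. With PC, 3 (25%) were higher than vehicle, beside 18.6% of all members. Among the 11 was Rps19 at -0.16 ± 0.02 (limma adjusted p = 3.86e-04), whose difference was -0.05 and not called under member scaling and under quantile normalization. The 2 members that were higher, Rps27l and Rpl22l1, are both paralogues.

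The authors' deposited tables, made with DESeq2, gave fewer calls. For AOAH the authors' deposited table listed 16 members lower and none higher, against 8.68% lower and 8.45% higher among its 12492 genes with an adjusted p-value, and 15 of the 16 were also called here. Rps27 had a log2 fold change of -0.29 in the authors' deposited table. For PC the authors' deposited table listed 8 members higher and none lower, against 5.74% and 7.65% of 11109 genes, and 7 of the 8 were also called here. Several genes named above as called lacked a call there. With PC these were Rps16 (DESeq2 adjusted p = 0.0517), Rps27 (0.0967), Rpl5 (0.211), Rpl22 (0.307) and Rps27rt (0.333). With AOAH they were Rplp2 (DESeq2 adjusted p = 0.0719), Rplp1 (0.0757), Rpl7l1 (0.0855) and Rpl11 (0.111).

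Paralogues were set beside their partners. Rps27l, a p53-induced relative of Rps27, stood at 489, 544, 477 and 506 TPM with AOAH, 447, 469 and 451 TPM with PC, and 464, 478, 474 and 481 TPM with vehicle. AOAH overlapped vehicle and PC did too, and only the difference between AOAH and PC was called (log2 0.14 ± 0.04, limma adjusted p = 0.0296; lost with no filter, under quantile normalization, and without AOAH 4, PC 1 or PC 3). The ratio of Rps27l to Rps27 TPM was 0.0802, 0.0891, 0.0828 and 0.0902 with AOAH, 0.0585, 0.0608 and 0.0597 with PC, and 0.0667, 0.0657, 0.0684 and 0.0636 with vehicle. No group overlapped another. For AOAH against vehicle the log2 difference of this ratio was 0.37 (exact permutation test, two-sided, p = 0.0286, the smallest that 4 against 4 allows, and 0.0571 adjusted over 12 tests). For PC against vehicle it was -0.17 (exact p = 0.10, the smallest that 3 against 3 allows).

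Rpl22l1, whose message the Rpl22 protein represses in mice, stood at 1068, 1051, 989.9 and 1015 TPM with AOAH, 976, 947 and 895 TPM with PC, and 1029, 989, 999.8 and 1016 TPM with vehicle. It was higher with AOAH than with PC (log2 0.13 ± 0.04, limma adjusted p = 0.0184; lost without PC 3 and under quantile normalization, at 0.01), and with PC against vehicle its log2 difference was -0.10 ± 0.03 (limma adjusted p = 0.0921). The ratio of Rpl22l1 to Rpl22 was 0.507 to 0.540 with AOAH and 0.473 to 0.506 with vehicle. The ratio of Rpl36al to Rpl36a was 0.865 to 0.905 with AOAH and 0.825 to 0.843 with vehicle, and that of Rpl7l1 to Rpl7 was 0.0762 to 0.0840 with AOAH and 0.0710 to 0.0728 with vehicle. None of these ranges overlapped, and each of these tests gave the smallest exact p, 0.0286, with 0.0571 after adjustment. Rpl36al itself was not higher with AOAH (log2 -0.03, limma adjusted p = 0.314). Its partner Rpl36a was lower (log2 -0.11, limma adjusted p = 0.00452; lost under TMM and member scaling). The authors' deposited table did not call Rpl36a with AOAH (DESeq2 adjusted p = 0.0608). With PC the Rpl22l1 ratio was 0.472 to 0.510 and the Rpl36al ratio 0.790 to 0.882, each overlapping both other groups. Rpl7l1 itself rose with AOAH, at 179, 178, 174 and 189 TPM against 168, 171, 163 and 167 TPM with vehicle (log2 0.11 ± 0.03, limma adjusted p = 0.0305). That call was lost with the batch as a block (limma adjusted p = 0.0522), with no filter, under quantile normalization, at 0.05, and without AOAH 1, 2 or 4 or vehicle 1, 3 or 4.

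**Figure D4:**
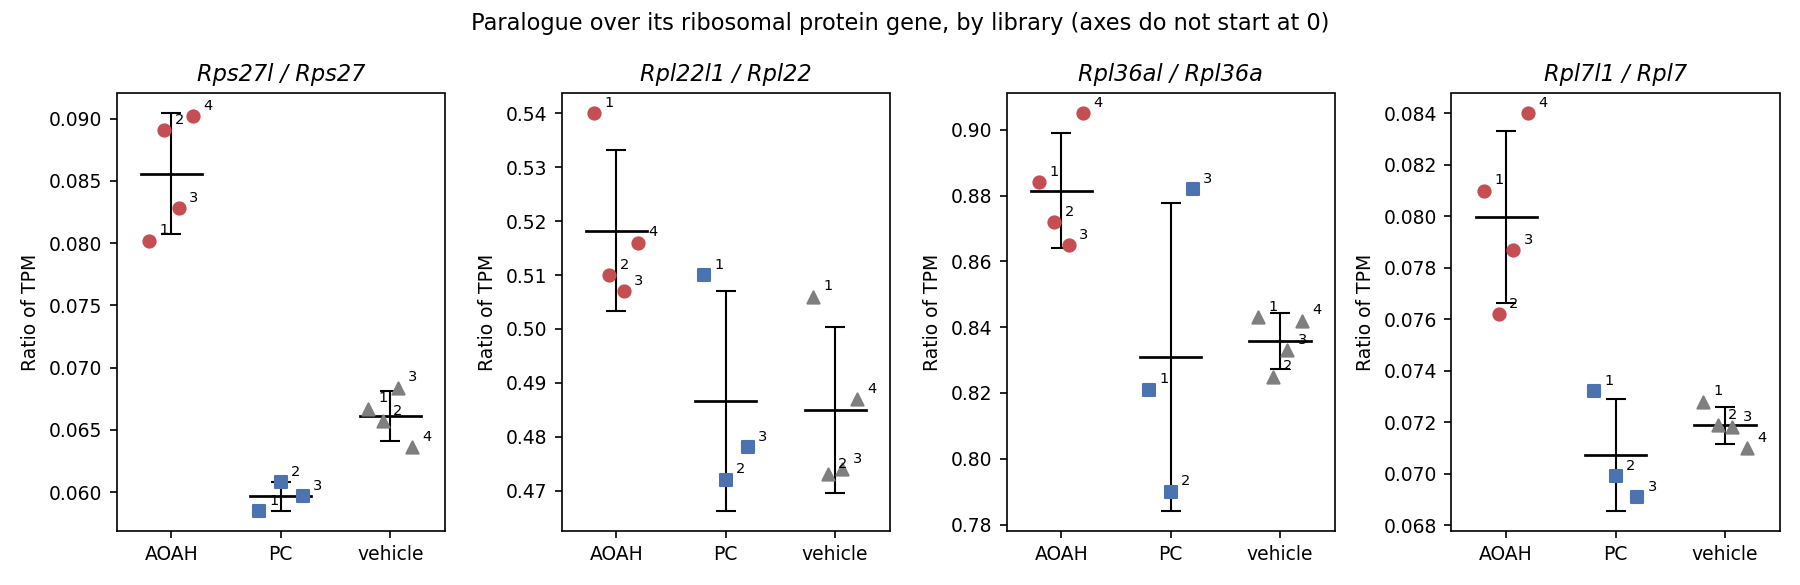
Ratio of TPM of each paralogue to its partner gene in each library (points, numbered by batch; bars are mean and SD of 4 AOAH, 3 PC and 4 vehicle libraries; axes do not start at 0). In all 4 pairs every AOAH library lies above every vehicle library, and Rps27l over Rps27 is the only pair in which PC lies wholly below vehicle.

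Some ribosomal proteins have symbols that the rule misses; those given here, and the other genes named below that are no members, were chosen from the lists after their values were seen. Fau, which encodes Rps30 fused to a ubiquitin-like protein, was not called with AOAH (log2 -0.05 ± 0.02, limma adjusted p = 0.170) and rose with PC (0.18 ± 0.02, limma adjusted p = 0.00253). Rack1, a scaffold on the small subunit, fell with AOAH (-0.06 ± 0.02, limma adjusted p = 0.0254) and rose with PC (0.09 ± 0.02, limma adjusted p = 0.0254).

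Genes that build ribosomes were called in the opposite direction to most called ribosomal protein genes within each comparison. The direction of the biogenesis calls held under every scaling tried, but the opposition did not. Scaled to the summed members, 7 subunit and stalk genes were higher and 4 lower with AOAH, and 5 higher and 3 lower with PC. Of 48 ribosome biogenesis genes, 33 were higher and none lower with AOAH (median log2 difference 0.16, 23 to 45 higher under the other scalings), and none was higher and 9 were lower with PC (median -0.08, 4 to 13 lower under the other scalings). These are 68.8% higher with AOAH and 18.8% lower with PC, beside 13.1% and 11.2% of all genes. Ncl, a nucleolar protein, differed by 0.19 ± 0.03 with AOAH (limma adjusted p = 9.88e-04) and by -0.19 ± 0.02 with PC (limma adjusted p = 0.00251). Nolc1, another nucleolar protein, differed by 0.26 ± 0.04 with AOAH (limma adjusted p = 0.00291) and by -0.19 ± 0.04 with PC (limma adjusted p = 0.0232). Their summed share was 1.55% ± 0.0251 with AOAH (SD, n = 4), 1.32% ± 0.0056 with PC (SD, n = 3) and 1.39% ± 0.0170 with vehicle (SD, n = 4). The 78 mitochondrial ribosomal protein genes gave 14 higher and 1 lower with AOAH, and none higher and 11 lower with PC; at 17.9% higher and 14.1% lower these shares are near the 13.1% and 11.2% of all genes. Of 35 translation initiation factor genes, 17 (48.6%) were higher and 1 lower with AOAH, and none higher and 8 (22.9%) lower with PC. Under quantile normalization 2 mitochondrial ribosomal protein genes and 1 initiation factor gene were higher with PC, and under TMM rescaling 2 initiation factor genes.

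Other genes known for terminal oligopyrimidine starts were split. Of 23 on this list, which includes Fau and Rack1, 5 (21.7%) were higher and 7 (30.4%) lower with AOAH, beside 13.1% and 12.1% of all genes. With PC, 4 (17.4%) were higher and 4 (17.4%) lower, beside 8.27% and 11.2% of all genes. The elongation factor gene Eef1a1 (-0.08 ± 0.01, limma adjusted p = 0.00369) and Tpt1 (-0.17 ± 0.02, limma adjusted p = 1.90e-04) fell with AOAH, while Npm1, a nucleolar chaperone (0.17 ± 0.02, limma adjusted p = 6.59e-04), and Pabpc1, which binds poly(A) tails (0.09 ± 0.02, limma adjusted p = 0.0107), rose. The median log2 difference of this list was -0.01 with AOAH and 0.01 with PC, and both signs turned when libraries were scaled to the summed members. A further list holds genes of mTOR signalling and its control of these messages, and also Myc, Mdm2 and Trp53. Of its 26 genes tested, 2 were higher and 4 (15.4%) lower with AOAH, where 12.1% of all genes were lower. With PC, 5 (19.2%) were higher and 2 lower, where 8.27% of all genes were higher. Among them, Eif4ebp1, a repressor of translation initiation that mTOR inactivates, was higher with AOAH (0.28, limma adjusted p = 0.019) and with PC (0.35, limma adjusted p = 0.0174). Log2 differences over this list ran from -1.47 to 0.28 with AOAH and from -0.16 to 0.70 with PC, so Eif4ebp1 does not stand for the list. Of 15 genes of ribosome quality control and import, 5 (33.3%) were higher and none lower with AOAH, where 13.1% of all genes were higher. With PC none was higher and 5 (33.3%) were lower, where 11.2% of all genes were lower. Of the 7 T cell markers, 6 (85.7%) were lower with AOAH and 7 (100%) higher with PC, beside 12.1% and 8.27% of all genes. The part of these markers in these results was not tested.

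**Figure D5:**
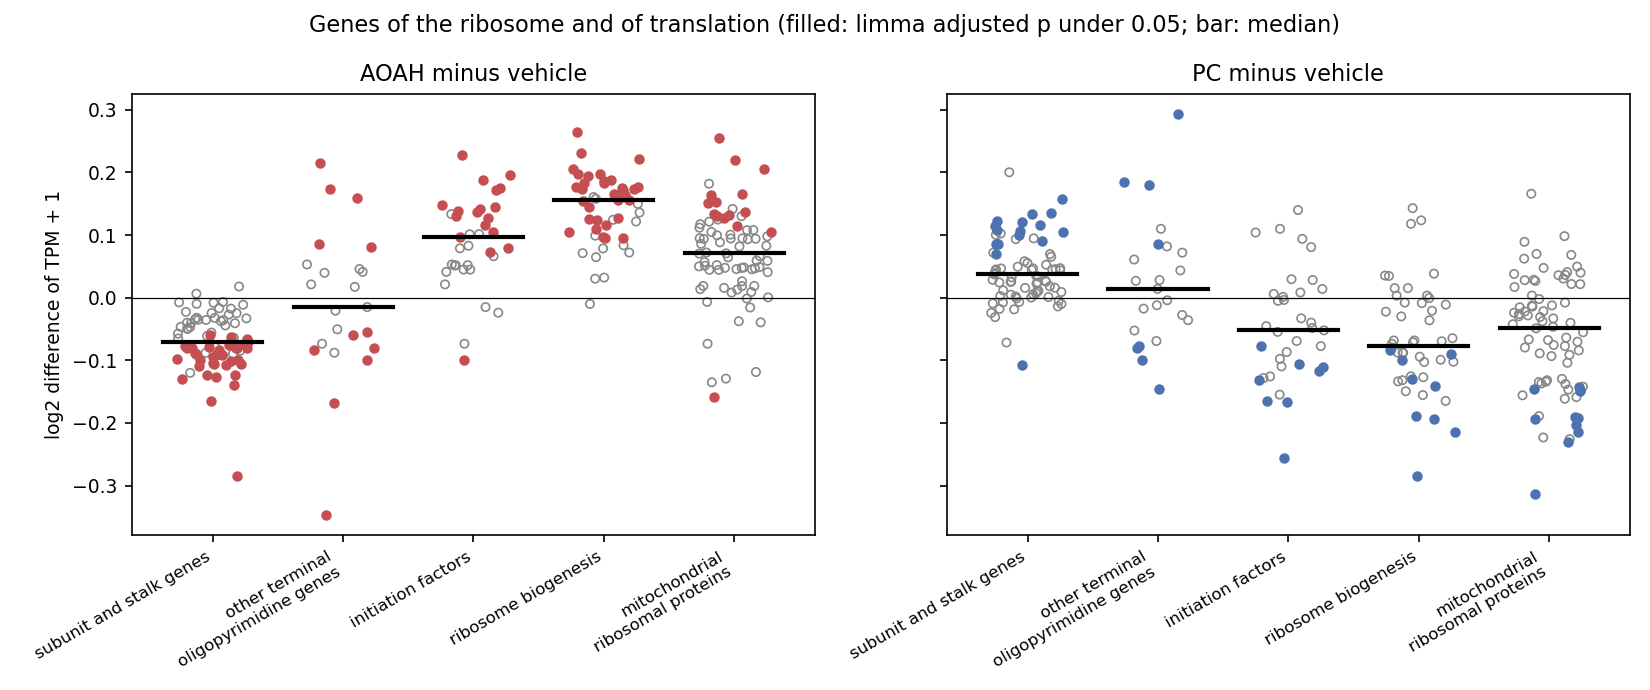
Log2 difference of TPM + 1 of each gene (points, filled at a limma adjusted p under 0.05) for 77 subunit and stalk genes and 4 other lists, with the median as a bar, for AOAH minus vehicle and PC minus vehicle. The subunit and stalk median is -0.07 with AOAH and 0.04 with PC, and those of ribosome biogenesis are 0.16 and -0.08. Scaled to the summed members, the subunit and stalk medians are 0.00 and -0.01.

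Transcript length and shared sequence were set beside these differences as descriptions. Across the 77 subunit and stalk genes, which share the same libraries, Spearman's correlation between transcript length and log2 difference was 0.236 for AOAH and 0.028 for PC. The median share of 100-base stretches found in transcripts of other genes was 41.4%, with 5 genes at 0 and 32 above 50%. Adding the 192 pseudogene rows to the 53 members that have them left the counts at 35 lower with AOAH and 16 higher with PC.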

How the data were processed

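Gene-level TPM came from RSEM, per the submitters' processing notes, which name build mm39; no version, aligner or use of molecular identifiers and ERCC spike-ins was stated. The deposited table holds log2(TPM + 1) for 11 polyA libraries, read as 2 × 150 bp; the authors' transform was undone to obtain TPM. The authors' deposited comparison tables, from DESeq2, hold a mean normalized signal per gene, a log2 fold change with its standard error, a Wald score, and p-values; their direction is not stated in the file, and was taken as treatment over vehicle because all 1861 (AOAH) and 1323 (PC) genes called in both sources had the same sign. The table gives no counts, so depth is unknown; TPM summed to 998406 to 998655 per library, with 11423 to 11739 genes at 1 TPM or more. Deposited T cell receptor clone files were not used here.

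Genes with a mean of 1 TPM or more over the libraries compared were tested on log2(TPM + 1) with limma 3.58.1 (R 4.3.3; trend and robust options), two-sided, with Benjamini-Hochberg adjustment over all genes tested and a threshold of 0.05. A pseudocount of 1 understates changes of low genes. Errors are SE of the log2 difference or SD of TPM. Paralogue ratios were compared with exact permutation tests (two-sided). The procedure was run on simulated data in which each gene varied independently. The members here rose and fell together across vehicle libraries, so that run does not cover counts over the set. Genes were named from a fixed panel, the 6 lowest p-values per comparison and direction, the 3 highest and 3 lowest levels, and the 2 largest and 2 smallest spreads; others are said to be chosen after their values were seen. Some genes that the rule or the lists would name are not reported here. Members, lists and tests were chosen with earlier results of these data known, and the comparison with genes of 500 TPM or more, the scaling of each list and the sequence sharing were added after seeing the data. Promoters are RefSeq's (GRCm38.p6), matched by symbol; the first of several entries is shown. The labels give each library a batch number, so same-numbered libraries were taken as paired in a second fit with the batch as a block; deviations from group means correlated at -0.0033 on average for same-batch pairs (10 pairs) and 0.0011 for other pairs (30 pairs).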

Additional observations from a re-analysis of the deposited data

Results flagged for a closer look

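Among 86 groups of 4 libraries tested with Dixon's criterion (named genes and summed shares), of which chance marks about 1 in 20, 3 had a library apart from the rest. Rpl10 stood at 4584 TPM in AOAH 1, against 4457 to 4474 TPM in the other AOAH libraries. Rpl17 stood at 2234 TPM in vehicle 3, while the other vehicle libraries held 2309.8 to 2319 TPM. Rpl12 reached 2173 TPM in vehicle 2, and the other vehicle libraries held 2093 to 2099.9 TPM.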

How the results depend on the processing

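Results were recomputed under other pseudocounts, filters, scalings and fits. For AOAH against vehicle, 36 members were lower and 1 higher; TMM rescaling gave 10 lower, quantile normalization 21 lower, and scaling to the summed members, which holds their total fixed by construction, 4 lower and 11 higher. The higher count became 0 without a filter and 0 with the batch as a replicate block. For PC against vehicle (16 higher, 1 lower), no filter gave 7 and 0, TMM rescaling 8 and 0, and scaling to the summed members 5 and 4, while the lower count became 2 in a fit over all 11 libraries, 2 with vehicle 4 included and 0 with the replicate block. For AOAH against PC (58 lower, 2 higher), scaling to the summed members gave 11 lower and 23 higher, quantile normalization 32 lower, and no filter 1 higher. With the replicate block the main counts were 35 lower for AOAH, 13 higher for PC and 55 lower for AOAH against PC; among the genes named in the results, this pairing ended the calls of Rplp2 and Rpl7l1 with AOAH of Rpl5 and Rpl22 with PC, and of Rpl10 for AOAH against PC. Leaving out 1 library gave 22 to 39 lower and 0 to 1 higher for AOAH, 3 to 25 higher and 0 to 1 lower for PC, and 50 to 62 lower and 0 to 2 higher for AOAH against PC. No setting moved the all-gene median by over 0.1. Among named genes, scaling to the summed members turned 14 signs with AOAH, 13 with PC and 13 for AOAH against PC, and 13, 13 and 3 of these had no call under either setting. The others turned positive: Rpl10 with AOAH (0.0645), and for AOAH against PC Rplp1 (0.0289), Rpsa (0.0688), Rps27a (0.0658), Rpl5 (0.00807), Rpl11 (0.0129), Rpl10 (0.0581), Rpl36a (0.0183), Rpl36al (0.105), Rpl38 (0.00423) and Rpl3 (0.0749). Under quantile normalization, which gave Rpl13a no value, and Rplp1 and Rps14 none for PC against vehicle, Rps14 turned to 0.0133 with AOAH and to 0.0133 for AOAH against PC, and Rplp1 to 0.00796 for AOAH against PC; the other signs that turned had no call under either setting. Quantile normalization sets values by rank, so these turns of highly abundant genes follow ranks and not TPM. For Rps14, TPM was 5734 to 6138 with AOAH and 6165 to 6542 with vehicle, without overlap. Beyond what each scaling does by construction, the cause was not tested.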
